A study of Mus musculus with 8 samples.

Results

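The genes described here are 9 mouse genes: the synucleins Sncb and Sncg, and 7 genes whose human counterparts are linked to Parkinson disease, namely Lrrk2, Park7, Pink1, Uchl1, Vps35, Atp13a2 and Fbxo7. They were chosen by name, and all 9 were found by Ensembl gene identifier among the 38924 genes of each of the 8 count tables. Synucleins are small proteins of nerve terminals that bind synaptic vesicle membranes. The other genes act in processes known from inherited parkinsonism: the removal of damaged mitochondria, the sorting and breakdown of cargo in endosomes and lysosomes, and the tagging of proteins with ubiquitin. Midbrain dopamine neurons are the cells that degenerate in Parkinson disease, while serotonin neurons of the hindbrain are a related monoamine cell type.

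RNA on tagged ribosomes was pulled down from embryonic brain of bacTRAP mice, which carry a ribosomal protein with a tag under the regulatory sequence of 1 gene. The series' design text names a mouse line for the dopamine transporter gene Slc6a3 and another for the serotonin transporter gene Slc6a4, while the description of every library, serotonin included, names the Slc6a3 line. The 6 dopamine libraries of midbrain came as datL (n = 2, titled datL4-1 and datL5-2), datM (n = 2, titled datM3-1 and datM4-2), Lateral (n = 1) and Medial (n = 1), and the hindbrain gave 2 serotonin libraries. All groups share the tagged ribosome and 1 growth text, by which embryos were dissected on embryonic day 15 and tissue called day 18 spent 3 days in vitro after dissection on day 15. The labels do not spell out the L and M of datL and datM, give no wild-type group, and leave unsaid if replicates came from separate animals. The p-values thus cover only the spread among these libraries, and that spread may be technical. The file headers place datL and datM in a run named for October, and Lateral, Medial and serotonin from lane 8 of another run, where only Lateral and Medial carry the mark E18.

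The libraries held between 22417739 and 33216710 counts. Fewer genes were detected in the 4 October libraries (11708 to 12509) than in the 4 of lane 8 (13703 to 15656). The transporter genes separated the groups as labelled, but the marker lists did so only in part. Th, which encodes tyrosine hydroxylase of the dopamine pathway, lay at 93.2 to 905 CPM (counts scaled to a library total of 1000000) in dopamine libraries and at 10.6 and 20.9 CPM in serotonin libraries, and Slc6a3 at 31.9 to 740 against 0.679 and 0.171 CPM. Slc6a4 was at 1196 and 1075 CPM in the serotonin libraries and between 0 and 5.27 CPM in the dopamine libraries. Of 12 dopamine neuron markers, 8 had a positive and 4 a negative log2 fold change against serotonin. Ddc and Slc18a2, which both monoamine types use, were lower in all 6 dopamine libraries (Ddc 48.9 to 281 against 871 and 654 CPM, Slc18a2 0 to 166 against 275 and 305). The sum of the 12 was 541 and 1206 CPM in datL, 1861 to 3033 CPM in the other 4 dopamine libraries, and 1290 and 1088 CPM in serotonin. Gata3, a marker of serotonin neurons, was at 422 CPM in datL replicate 1, where Slc6a4 was at 0, and at 601 and 602 CPM in serotonin. The 2 libraries of a dopamine pair differed widely: of the genes with at least 5 CPM in 1 of them, 70.3% were more than 2-fold apart in datL and 64.4% in datM, against 18% in serotonin. Replicate 2 of both datL and datM also held less RNA of GC-rich transcripts. The median deviation of the 20% of genes with the highest GC content minus that of the 20% with the lowest was -1.44 and -1.41 (log2) there, and 0.0189 to 0.622 in the other 6 libraries.

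Levels between genes were compared per kilobase of exon (RPKM). Uchl1 was first of the 9 genes in all 8 libraries, with 333 to 1329 RPKM, and Lrrk2 was last in all 8, with 0 to 2.99 RPKM. Park7 followed Uchl1 in 7 of 8 libraries; in datL replicate 2 it came behind Vps35 as well. Among all detected genes of a library, Uchl1 stood at the 99.1th percentile or above in RPKM, Park7 at the 97.0th or above and Vps35 at the 91.5th or above. Over the 8 libraries Park7 varied least of the 9. Its SD of log2(CPM + 1) was 0.37, lower than for all but 1.34% of 10416 genes. Its highest level was 2.00-fold its lowest. On this scale Sncg varied most, with an SD of 2.43 at the 97.5th percentile. The added 1 narrows the spread of low levels, such as those of Lrrk2 (SD 1.86), at 0 to 35.4 CPM. The order of Sncg and Lrrk2 thus depends on it.

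**Figure D1:**
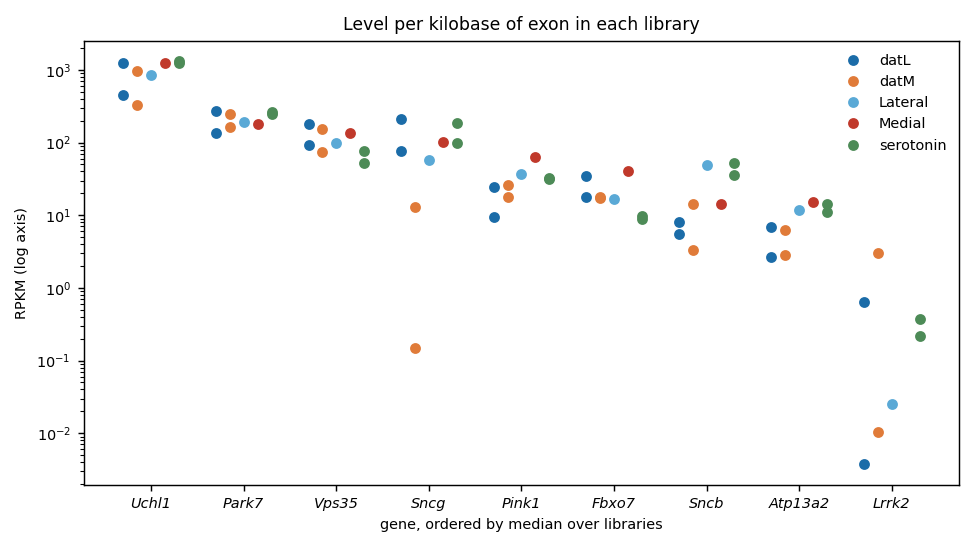
CPM per kilobase of exon (RPKM, log axis) of each of the 9 genes, 1 point per library and 1 colour per group. Uchl1 is the highest gene in every library and Lrrk2 the lowest, and Lrrk2 in Medial, at 0 counts, cannot be drawn on the log axis.

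Sncb encodes beta-synuclein, a nerve terminal protein (Ensembl ENSMUSG00000034891.7, chromosome 13, 54758860 to 54766595, minus strand, mm10, 7 exon blocks). It was at 17.5 and 11.9 CPM in datL, 30.6 and 7.11 in datM, 104 in Lateral, 30.6 in Medial, and 113 and 76.4 in serotonin. Lateral alone of the dopamine libraries reached the level of the serotonin libraries, and the other 5 lay below both of them. The order of the group means was Lateral, serotonin, Medial, datM and datL, in which the range of Lateral fell within that of serotonin and those of datM and datL overlapped. All 4 October libraries lay below both lane 8 dopamine libraries, though datM replicate 1, at 30.6424 CPM, was level with Medial, at 30.6454.

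Sncg encodes gamma-synuclein (ENSMUSG00000023064.4, chromosome 14, 34370274 to 34374789, minus strand, 5 exon blocks). It was at 180 and 65.7 CPM in datL, 11.0 and 0.125 in datM, 49.2 in Lateral, 86.1 in Medial, and 83.6 and 158 in serotonin. The datM libraries were the 2 lowest of the 8, with 300 and 3 counts. The ranges of datL and serotonin overlapped, and so did that of serotonin with Medial. Within datM the gene was 88.2-fold apart (95% counting interval 29.9 to 430), against 2.75-fold in datL and 1.89-fold in serotonin.

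Pink1 encodes a mitochondrial kinase that accumulates on damaged mitochondria and marks them for removal (ENSMUSG00000028756.6, chromosome 4, 138313409 to 138326307, minus strand, 8 exon blocks). It was at 65.6 and 25.3 CPM in datL, 68.6 and 47.2 in datM, 97.7 in Lateral, 167 in Medial, and 85.5 and 83.7 in serotonin. Its 4 October libraries were the lowest, serotonin lay between, and Lateral and Medial were the highest. Annotated small genes share 6.70% of its exon sequence and were listed at 0 counts in every library.

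Park7 encodes DJ-1, a protein that protects cells against oxidative stress (ENSMUSG00000028964.8, chromosome 4, 150897133 to 150914437, minus strand, 11 exon blocks). It was at 665 and 332 CPM in datL, 610 and 403 in datM, 473 in Lateral, 447 in Medial, and 609 and 650 in serotonin. The first 3 groups in the order of means, serotonin, datM and datL, overlapped, and Lateral and Medial lay within the ranges of datL and datM.

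Lrrk2 encodes a large kinase that phosphorylates Rab proteins on vesicles (ENSMUSG00000036273.9, chromosome 15, 91673175 to 91816120, plus strand, 54 exon blocks). It was at 0.0441 and 7.55 CPM in datL, 35.4 and 0.125 in datM, 0.301 in Lateral, 0 in Medial, and 2.61 and 4.39 in serotonin. These rest on 1, 198, 965, 3, 10, 0, 77 and 128 counts, and both dopamine pairs held 1 library with 3 counts or fewer. Within datL it was 171-fold apart (95% counting interval 30.4 to 6805) and within datM 284-fold (96.8 to 1378), each in the opposite replicate. The 8 microglia markers were low: their sum was between 0 and 14.1 CPM, and Csf1r and P2ry12, which define microglia, were at 0 in all 8 libraries. The highest sum was in datM replicate 1, the library with the most Lrrk2, where Aif1 gave 13.5 of the 14.1 CPM. The part of these cells in the Lrrk2 counts was not tested.

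Vps35 encodes the core subunit of retromer, the complex that returns cargo from endosomes (ENSMUSG00000031696.8, chromosome 8, 85260397 to 85299513, minus strand, 17 exon blocks). It was at 297 and 570 CPM in datL, 234 and 484 in datM, 316 in Lateral, 425 in Medial, and 165 and 240 in serotonin. Only datM replicate 1 among the 6 dopamine libraries lay below the higher serotonin library. The ranges of datL and datM overlapped, and Lateral and Medial lay within both.

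Atp13a2 encodes a lysosomal transporter of polyamines (ENSMUSG00000036622.9, chromosome 4, 140986873 to 141007330, plus strand, 25 exon blocks). It was at 41.9 and 15.9 CPM in datL, 37.3 and 17.2 in datM, 71.6 in Lateral, 90.4 in Medial, and 85.9 and 66.5 in serotonin. The 4 October libraries lay below the other 4, and datL and datM overlapped.

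Uchl1 encodes a ubiquitin hydrolase that is abundant in neurons (ENSMUSG00000029223.9, chromosome 5, 66676098 to 66687231, plus strand, 9 exon blocks). It was at 2005 and 723 CPM in datL, 1539 and 538 in datM, 1358 in Lateral, 2013 in Medial, and 2147 and 2027 in serotonin. All 6 dopamine libraries lay below both serotonin libraries with the smallest gap between Medial and serotonin replicate 2. The antisense gene Uchl1os shares 287 bp, or 17.8%, of its exon sequence, and counting without strand cannot tell the 2 apart there. Uchl1os itself had 17 counts in datL replicate 2 and 0 in the other libraries.

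Fbxo7 encodes an F-box protein, the substrate-binding part of a ubiquitin ligase, which also has a role in the removal of mitochondria (ENSMUSG00000001786.8, chromosome 10, 86021972 to 86051873, plus strand, 11 exon blocks). It was at 212 and 109 CPM in datL, 107 and 111 in datM, 103 in Lateral, 247 in Medial, and 54.5 and 60.4 in serotonin. Every dopamine library lay above both serotonin libraries. Among the dopamine libraries, datL replicate 1 and Medial were high and the other 4 lay within 103 to 111 CPM. An antisense gene shares 5.02% of its exon sequence and was listed at 0 counts throughout.

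**Figure D2:**
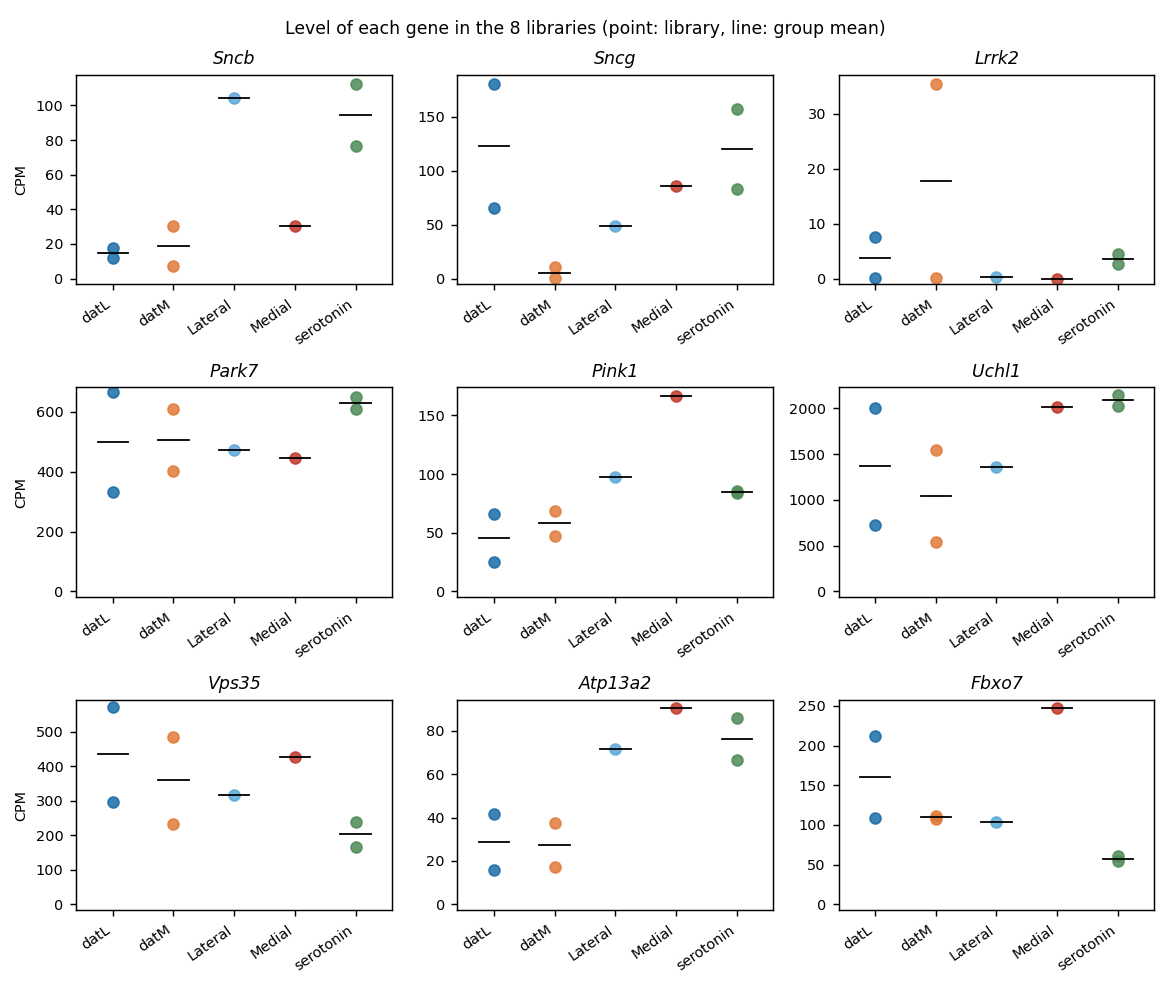
CPM (linear axis from 0) of the 9 genes by group, 1 panel per gene, with a point for each of the 8 libraries and a line at the group mean. Fbxo7 lies at 103 to 247 in the 6 dopamine libraries and at 54.5 and 60.4 in serotonin, while Lrrk2 in datM, at 35.4 and 0.125, and Sncg in datL, at 180 and 65.7, fall far apart within a pair.

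The comparison of 6 dopamine with 2 serotonin libraries asked which genes differ between the neuron types. Fbxo7 and Vps35 had the largest positive differences relative to their error, and no gene of the 9 passed the test. With edgeR's quasi-likelihood test and Benjamini-Hochberg adjustment over 13806 genes, 0 of the 9 genes were called, as were 0% of all genes tested. At an unadjusted p under 0.05, edgeR had 2 of the 9, Fbxo7 and Vps35, beside 4.69% of all genes, and both were higher in dopamine, beside 2.8% of all genes in that direction. DESeq2 called 0 of the 9, beside 0.963% of all genes, and limma-voom 0, beside 0.101%. In a bulk pulldown, fewer cells of a type and less RNA per cell cannot be told apart.

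Fbxo7 averaged 148 ± 64.1 CPM (SD, n = 6) in dopamine and 57.5 ± 4.15 (SD, n = 2) in serotonin libraries, and was higher in 6 of 6. Its log2 fold change was 1.49 (SE 0.54, edgeR adjusted p = 0.847). Vps35 averaged 388 ± 127 against 202 ± 52.7 CPM, and its log2 fold change was 1.07 (SE 0.46), with an edgeR adjusted p of 0.99987. The groups of Vps35 overlapped in CPM and did not overlap after scaling by TMM factors, whereas those of Fbxo7 did not overlap under either scaling or after smoothing on GC content (described with the replicate pairs).

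Of the 9 genes, 1 had dopamine libraries wholly above serotonin in CPM, Fbxo7, beside 3.06% of all genes, and 1 had them wholly below, Uchl1, beside 8.59%. Uchl1 averaged 1363 ± 625 CPM in dopamine and 2087 ± 85.3 in serotonin, with a log2 fold change of -0.49 (SE 0.48), and its groups overlapped after TMM scaling and after the GC smooth. After the GC smooth, Park7 also lay wholly below serotonin and Vps35 wholly above. The shares of all genes without overlap after TMM scaling or the GC smooth, for these and for Vps35 and Fbxo7 above, were not counted. The synucleins had negative values with wide errors, -1.39 (SE 0.90) for Sncb and -0.73 (SE 1.33) for Sncg. Atp13a2 was at -0.65 (SE 0.75) and Park7 at -0.22 (SE 0.38). Pink1, at -0.03 (SE 0.65), and Lrrk2, at 1.24 (SE 2.90), had no direction beyond their error. In all, 3 of 9 genes had a positive log2 fold change, and the median was -0.22, beside 58.9% positive and a median of 0.26 over all genes tested.

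Other markers moved with the groups that separate Fbxo7. The 8 red blood cell markers, a cell type in which Fbxo7 is also known to act, summed to 102 to 740 CPM in dopamine and to 30.4 and 50.4 CPM in serotonin libraries, with Slc4a1 at 0 in all 8. The 12 markers of astrocytes and radial glia summed to 2110 to 5110 CPM in dopamine and to 951 and 1290 CPM in serotonin libraries. The 6 progenitor markers summed to 172 to 586 CPM in dopamine and to 94.4 and 88.6 CPM in serotonin libraries, and the 8 endothelial and mural markers to 13.9 to 148 CPM and to 13.1 and 13.3 CPM. The 10 neuron markers were all detected in each library, at 12197 to 19324 CPM in all. The part of these cell types in the Fbxo7 difference was not tested.

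Within lane 8, Lateral and Medial could be compared with serotonin without the October libraries, although the E18 mark of the dopamine libraries there cannot be told apart from neuron type. Fbxo7 and Vps35 again lay above serotonin, by 1.50 (SE 0.45, edgeR adjusted p = 0.286) and 0.79 (SE 0.31, edgeR adjusted p = 0.347) on the log2 scale. All libraries of this comparison, dopamine and serotonin, were also in the one before, so it is not an independent check. Fbxo7, above serotonin in every dopamine library in CPM, had to stay so here. By edgeR, 0 of the 9 genes were called, beside 0.0224% of 13400 genes tested. At an unadjusted p under 0.05, 2 of the 9 passed, again Fbxo7 and Vps35, beside 13.8% of all genes, and both were higher in dopamine, beside 7.34%. DESeq2 called 1 of the 9, Fbxo7 (DESeq2 adjusted p = 0.0438), beside 5.87% of all genes, and limma-voom called 0, beside 0.00746%.

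Without Lateral, edgeR called 2 of the 9 in lane 8, with Medial as the only dopamine library and assumed to vary like the serotonin pair: Fbxo7 at 1.97 (edgeR adjusted p = 0.0247) and Sncb at -1.76 (edgeR adjusted p = 0.0446). In that setting 17.3% of all genes were called. Without Medial, Sncb stood at 0.13 and Fbxo7 at 0.83, and 0 of the 9 were called, beside 0.159%. In lane 8, 3 of the 9 genes lay wholly above serotonin in CPM (Pink1, Vps35 and Fbxo7), beside 25% of all genes, and 3 wholly below (Lrrk2, Park7 and Uchl1), beside 24.6%. Sncg joined the latter after TMM scaling and Uchl1 left them after the GC smooth, where the shares of all genes were not counted. Lrrk2, at 10 and 0 counts against 77 and 128, had a log2 fold change of -4.50 (SE 2.38), on the other side of 0 from its value with all 6 dopamine libraries.

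**Figure D3:**
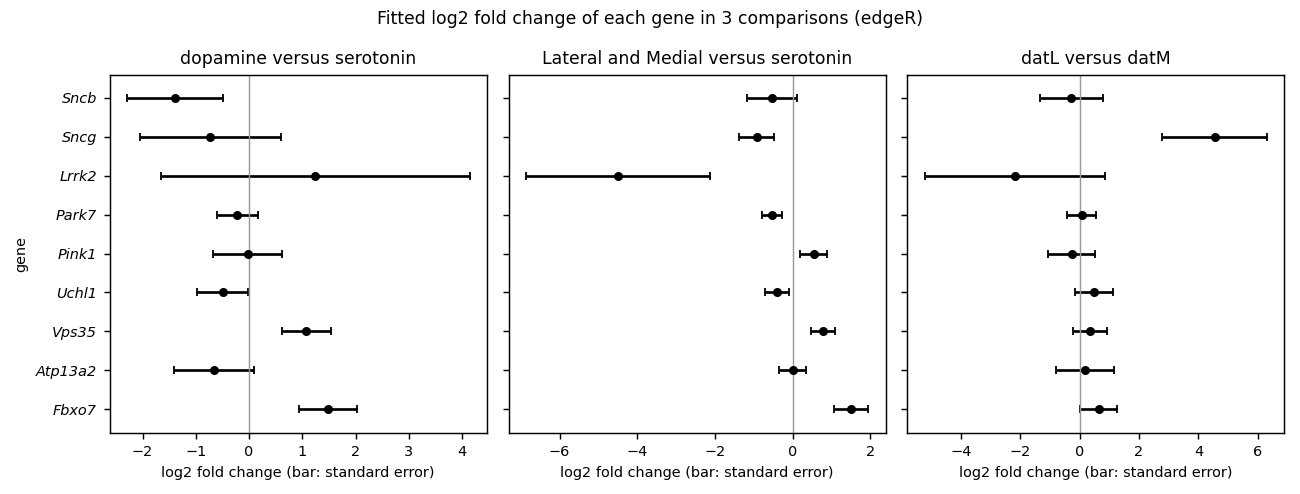
Log2 fold change with 1 standard error (edgeR) of the 9 genes in dopamine against serotonin, Lateral and Medial against serotonin, and datL against datM. Fbxo7, at 1.49 and 1.50, and Vps35, at 1.07 and 0.79, lie above 0 in the comparisons with serotonin, Sncg stands at 4.54 in datL against datM, and no point passed an adjusted p of 0.05.

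The datL and datM libraries gave the only replicated comparison within dopamine neurons. Sncg was higher in datL, at 123 ± 81.1 CPM (SD, n = 2) against 5.57 ± 7.70 (SD, n = 2). The log2 fold change was 4.54 (SE 1.77), and its edgeR adjusted p was 0.597. By edgeR, 0 of the 9 genes were called, beside 0% of 15177 genes, and 1 of the 9, Sncg, had an unadjusted p under 0.05, beside 6.92%, and was higher in datL, beside 3.4%. DESeq2 called 1 of the 9, Sncg (DESeq2 adjusted p = 0.0168), beside 10.6% of all genes, and limma-voom called 0 of the 9, beside 1.6%. Sncg was also the only one of the 9 whose datL and datM libraries did not overlap in CPM, beside 11.3% of all genes with datL higher and 13.2% with datM higher. After TMM scaling Fbxo7 also lay wholly higher in datL, and after the GC smooth Vps35 lay higher and Pink1 and Atp13a2 lower. The shares of all genes without overlap under these scalings were not counted, so these are not set against a background. The log2 fold change of Sncg without datM replicate 2, the library with 3 counts, was lower, at 3.52, and without datM replicate 1 it was 10.00. The other 8 genes had log2 fold changes between -2.18 (Lrrk2, SE 3.04) and 0.64 (Fbxo7, SE 0.62), each with libraries that overlapped in CPM. Some marker sums also separated the 2 groups, and others overlapped. The dopamine neuron sum was 541 and 1206 CPM in datL against 2531 and 1861 in datM, with 6 of its 12 genes wholly lower in datL. The serotonin neuron sum was 425 and 82.0 against 48.1 and 73.0 CPM, of which Gata3 alone gave 422 and 68.8 against 37.0 and 11.8. Htr1a of the same list gave 0.0441 and 11.0 against 0.0734 and 60.6 CPM. The list had 3 positive and 3 negative log2 fold changes. The serotonin markers Slc6a4 and Fev were at 0 in every datL and datM library. The progenitor sum was 175 and 252 against 451 and 586 CPM, of which Top2a alone gave 13.5 and 94.95 against 165 and 477. Cdk1 of the same list went the other way without overlap, at 62.8 and 51.9 against 15.8 and 22.3 CPM. Of the 6 progenitor genes, 1 was wholly higher and 1 wholly lower in datL. The endothelial and mural sum was 13.9 and 62.6 against 88.3 and 148 CPM. The sums of neuron, red blood cell, microglia and oligodendrocyte lineage markers overlapped between datL and datM. So did the glial sum, at 3867 and 2110 against 5110 and 2945 CPM. The part of these cell types in the Sncg difference was not tested.

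Lateral and Medial had 1 library each, so their difference has no replicate check, and intervals cover counting error only. Sncb was 3.41-fold higher in Lateral (95% interval 3.14 to 3.70), and Fbxo7 was 2.40-fold higher in Medial (2.30 to 2.51). Sncg was 1.75-fold higher in Medial (1.64 to 1.87) and Pink1 1.71-fold (1.63 to 1.79). Medial also had the higher level of Uchl1 (1.48-fold), Vps35 (1.34-fold) and Atp13a2 (1.26-fold). Park7 was 1.06-fold higher in Lateral (1.03 to 1.09). For Lrrk2, Lateral had 10 counts and Medial 0, and no interval was computed. With 3 counts assumed for Medial it would be 2.25-fold higher in Lateral, which is not a lower confidence limit. More than 2-fold apart were 2 of the 9 genes with Lateral higher (Sncb and Lrrk2), beside 29% of all genes, and 1 with Medial higher (Fbxo7), beside 22.8%. Medial also had the higher sums of red blood cell markers (237 against 102 CPM), progenitor markers (332 against 172 CPM) and glial markers (4209 against 2186 CPM). The same held for endothelial and mural markers (148 against 38.0 CPM) and oligodendrocyte lineage markers (273 against 142 CPM). Lateral had the higher sums of neuron, dopamine neuron, serotonin neuron and microglia markers. The part of these cell types in these differences was not tested.

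Within the replicate pairs, 6 of the 9 genes were more than 2-fold apart in datL, 6 in datM and 0 in serotonin, where the background was 70.3%, 64.4% and 18%. In both dopamine pairs replicate 2 had less Sncb, Sncg, Park7, Pink1, Uchl1 and Atp13a2, and more Vps35. The transcripts of these 6 genes had a GC content between 52.9% (Park7) and 62.5% (Atp13a2, the 98.8th percentile of all genes), above the median of 49.8%. Vps35 was at 37.8%, the 1.75th percentile, and Lrrk2 and Fbxo7 were below the median at 45.5% and 46.5%.

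Dividing each library by its smooth on GC content, a step added after the data were seen, brought some pairs together. Vps35 went from 1.92-fold to 1.20-fold apart in datL and from 2.07-fold to 1.10-fold in datM. Atp13a2 went from 2.64-fold to 1.15-fold in datL and from 2.17-fold to 1.18-fold in datM. These are the genes with the lowest and the highest GC content of the 9. The smooth was fitted on these same libraries, so the closer pairs are no test of GC content as a cause. Sncb, at 61.4% GC, came closer in datM, from 4.31-fold to 2.40-fold, but not in datL.

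Sncg in datM and Lrrk2 in both pairs stayed far apart. Sncg went from 88.2-fold to 59.6-fold in datM and from 2.75-fold to 1.81-fold in datL, and Lrrk2 from 171-fold to 129-fold in datL and from 284-fold to 346-fold in datM. Uchl1 came closer, from 2.77-fold to 1.80-fold in datL and from 2.86-fold to 1.91-fold in datM. Other pairs moved apart in datL: Fbxo7 went from 1.94-fold to 2.31-fold, and Sncb from 1.47-fold with replicate 1 higher to 1.83-fold with replicate 2 higher. With the same smooth as an offset in the edgeR fit, dopamine against serotonin gave 1.35 for Fbxo7, 0.76 for Vps35 and 0.27 for Pink1, and 0 of the 9 genes were called.

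**Figure D4:**
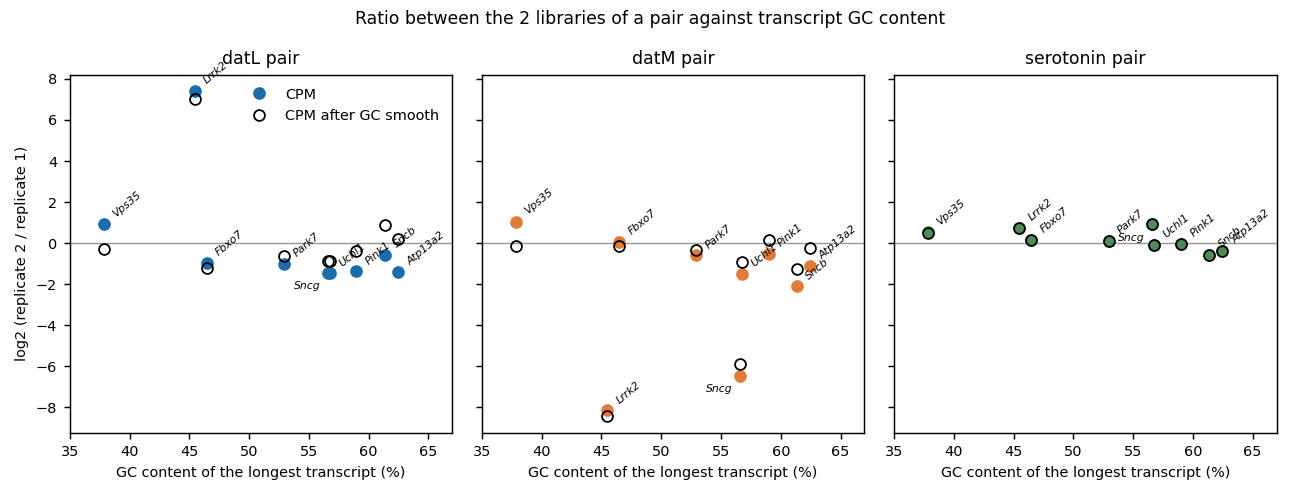
Log2 ratio of replicate 2 to replicate 1 for each of the 9 genes against the GC content of its longest transcript (percent), in datL, datM and serotonin. Filled points are CPM and open points CPM after the GC smooth: Vps35 at 37.8% GC and Atp13a2 at 62.5% move toward 0 in both dopamine pairs, while Lrrk2 in both pairs and Sncg in datM stay far from it.

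Between runs, 3 of the 9 genes, Sncb, Pink1 and Atp13a2, were lower in all 4 October dopamine libraries than in both lane 8 dopamine libraries, beside 13.1% of all genes, and 0 were higher in all 4, beside 2.63%. These counts are for CPM. After TMM scaling, Sncb in datM replicate 1 (32.7) lay above Medial (27.1). After the GC smooth it did so too (34.1 against 21.4), and Pink1 in datM replicate 2 (80.6) lay above Lateral (78.5). Atp13a2 stayed lower in the October libraries under both scalings. The shares of all genes there were not counted. Run, the L, M, Lateral and Medial labels, and the E18 mark cannot be told apart in these libraries.

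Across the 8 libraries the levels of some of the 9 genes went together, as a description over points that share runs, pairs and GC effects. Pearson's r of log2(CPM + 1) was 0.905 between Pink1 and Atp13a2, 0.874 between Uchl1 and Atp13a2, 0.847 between Sncb and Atp13a2, and -0.87 between Vps35 and Park7. For Lrrk2, r with the other 8 genes lay between -0.44 and 0.145.

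Among 9968 genes with a mean of at least 5 CPM, those with the most similar pattern over the 8 libraries were Dmtn (r = 0.996) and Amdhd2 for Sncb, and U2af1l4 (r = 0.996) and Lman2l for Sncg. For Park7 they were Kcnk3 and Mvk, for Pink1 Slc22a17 and Syn2, for Uchl1 Csnk1e and Nt5c3, and for Lrrk2 Bbs10 and Zbtb37. For Vps35 they were Iqgap2 and Cse1l, for Atp13a2 Ahcyl2 and Cfap298, and for Fbxo7 Phf20l1 and Rsrp1. The lowest of these 18 r was 0.944, for Vps35 and Cse1l. Dmtn, which encodes an actin-bundling protein, was at 211 CPM in Lateral, at 212 and 165 CPM in serotonin and at 31.7 to 76.4 CPM in the other 5 libraries. U2af1l4, which encodes a splicing factor, was at 0.0832 CPM in datM replicate 2, where Sncg had 0.125 CPM.

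Of 7 paralogs of the 9 genes, 6 passed the expression filter in dopamine against serotonin and 0 were called by edgeR, in either direction. Lrrk1, the closest relative of Lrrk2, was at 12.7 and 14.1 CPM in serotonin, at 1.57 CPM in Lateral, at 0.0446 CPM (1 count) in Medial, and at 0 in the 4 October libraries. Its log2 fold change was -5.54 (SE 2.61, edgeR adjusted p = 0.99987), and all 6 dopamine libraries lay below both serotonin libraries. Uchl3, a ubiquitin hydrolase related to Uchl1, was at 275 and 216 CPM in datL and 87.3 and 66.4 in datM, without overlap, and at 233 and 217 CPM in serotonin. The transporter paralog Atp13a3 ranged from 2.79 CPM (datM replicate 1) to 63.6 (datL replicate 1) over the dopamine libraries. Against serotonin, Uchl5 was at -0.48 (SE 1.68), Atp13a1 at 0.17 (SE 2.16) and Atp13a4 at 0.04 (SE 2.74), and Atp13a5 did not pass the filter, with 0 CPM in serotonin.

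The pathways around the 9 genes were counted in lists of their other components. Of all genes tested, 4.69% had an unadjusted p under 0.05 in edgeR and 58.9% were positive, with a median of 0.26. Wholly above serotonin were 3.06% of all genes, and wholly below 8.59%. The genes named below had the smallest unadjusted p of their list in this same comparison, so their separation follows in part from that choice. Dopamine against serotonin, edgeR called 0 genes in each of the 6 lists, in either direction, and DESeq2 and limma-voom called 0 of the 17 genes named from them here. At an unadjusted p under 0.05, the 12 other parkinsonism genes had 1 higher in dopamine (Gigyf2) and 1 lower (Chchd2), with a median log2 fold change of 0.32. Chchd2, a mitochondrial protein, averaged 94.0 CPM in dopamine and 387 CPM in serotonin and was lower in 6 of 6 libraries (log2 fold change -1.92, SE 0.76). Gigyf2, a translational repressor, averaged 125 against 29.5 CPM (2.22, SE 0.83), but datL replicate 1, at 16.5 CPM, lay below serotonin. Vps13c, a lipid transfer protein, was at 2.19 (SE 1.07).

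Of 14 genes of retromer, its WASH partner complex and sorting nexins, 1 had an unadjusted p under 0.05, Washc2, higher in 6 of 6 dopamine libraries at 134 against 54.7 CPM (1.42, SE 0.52). Snx3, a sorting nexin that helps recruit retromer to membranes, was lower in 6 of 6, at 85.6 against 279 CPM (-1.63, SE 0.80). Washc4, of the same complex as Washc2, was at 1.91 (SE 1.17). The median of the list was 0.16. None of the 25 tested genes of mitophagy and mitochondrial dynamics reached an unadjusted p under 0.05 in edgeR; the fission gene Dnm1l was at 1.08 (SE 0.54), the autophagy receptor Tax1bp1 at 0.98 (SE 0.57) and the fusion gene Opa1 at 1.17 (SE 0.73), and the list's median was -0.01.

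None of the 16 Rab substrates of LRRK2 and their partners did so either, with 5 positive, 11 negative and a median of -0.28. Ppm1h, the phosphatase that removes the LRRK2 mark from Rab proteins, was lower in 6 of 6 dopamine libraries, at 88.6 against 177 CPM (-0.85, SE 0.52). The vesicle Rab genes went opposite ways, Rab3c at 0.88 (SE 0.57) and Rab3a at -0.87 (SE 0.58). Of 15 tested lysosome and autophagy genes, Gabarap, which builds autophagosomes, had an unadjusted p under 0.05. It was at 420 against 1043 CPM and lower in 6 of 6 (-1.17, SE 0.39, edgeR adjusted p = 0.690). The proton pump subunit Atp6v1a was at 1.08 (SE 0.51) and the protease gene Ctsb at -0.63 (SE 0.63), and the median was -0.29.

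The list of 14 genes of SCF ubiquitin ligases, in which Fbxo7 acts, and of the proteasome had Cul1, the scaffold of the SCF ligase, higher in 6 of 6 dopamine libraries, at 90.7 against 53.4 CPM (0.91, SE 0.52). The proteasome gene Psmd1 was at 0.84 (SE 0.52), and the list had 7 positive and 7 negative values with a median of -0.01.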

How the data were processed

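Gene expression was measured by sequencing ribosome-bound RNA in 8 libraries. The authors amplified cDNA by long-distance PCR, per the labels' protocols, and the submitters' processing notes list STAR and mm10. The deposited values were raw counts per gene from featureCounts 1.4.3-p1 with GENCODE annotation M2, without strand, per the file headers. PCR before sequencing, without molecular identifiers, means that counting intervals cover counting error only.

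Counts were scaled to CPM by library total, and to RPKM by exon length. Symbols were attached by identifier to 37607 of 38924 genes. Tests used edgeR 4.0.16 (R 4.3.3; quasi-likelihood, two-sided, TMM factors, its expression filter, which all 9 genes passed in all 3 comparisons) with Benjamini-Hochberg adjustment over all genes tested, threshold 0.05. The standard error came from the fold change and the test statistic. The datL against datM contrast was fitted with all 5 groups. The alternatives tried were DESeq2 1.42.0, limma-voom (limma 3.58.1), RLE factors, no filter, at least 5 CPM in 2 libraries, other groupings in the fit, each library left out, a replicate block and, added after the data were seen, a GC offset from the longest transcript in a later GENCODE annotation. On simulated counts the scripts were tested before use.

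The 9 genes, the lists and the marker genes were chosen with earlier results of these data known. Named in the text are the 9 genes, all their paralogs in the lists, the 3 genes with the smallest unadjusted p of each pathway list, the 2 genes most like each of the 9, and 4 genes that check the labels; 1 gene of this rule is not reported here. Other genes were named as defining markers or for overlap. The 9 marker lists were used as sums, given beside the results. That of the oligodendrocyte lineage was between 21.1 and 273 CPM and overlapped between dopamine and serotonin libraries.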

Additional observations from a re-analysis of the deposited data

Results flagged for a closer look

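In 7 of 38 genes examined over the 6 dopamine libraries, 1 library stood apart from the other 5, with a gap to its nearest neighbour above Dixon's 95% critical value for 6 samples as a share of the whole range. Chance flags about 1 in 20 groups of 6 normal values from a single population. That rate cannot be applied here, because the 6 libraries came from several groups and different runs. A gene detected in only 1 of the 6 libraries is also flagged whatever its level there. The count of 7 in 38 thus cannot show more outliers than chance would give. Of the 9 genes described, 2 were among the 7 flagged. Sncb was at 104.465 CPM in Lateral, and the next library, Medial, was at 30.6454. Lrrk2 was at 35.4131 CPM in datM replicate 1, and the next, datL replicate 2, at 7.55363.

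Of the paralogs, Lrrk1 was at 1.56548 CPM in Lateral and at 0.0446075 or less in the other 5 dopamine libraries. Atp13a4 was at 2.00734 CPM in Medial and at 0 in the other 5, and Atp13a5 was at 2.98043 CPM in Lateral and at 0 in the other 5. The ligase scaffold Cul1 was at 115.024 CPM in datM replicate 2, and the next library at 94.6875. The dopamine transporter gene Slc6a3 was at 739.537 CPM in Lateral, and the next library at 229.051.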

How the results depend on the processing

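In dopamine against serotonin, 7 of the 9 genes kept the sign of their log2 fold change in all 17 alternatives, in Lateral and Medial against serotonin 7 of 9 in 10, and in datL against datM 2 of 9 (Sncg and Fbxo7) in 16. Of the 28 other genes that the naming rule took for this comparison, 26 kept theirs in dopamine against serotonin. The median of all genes there moved from 0.26 to -0.64 with limma-voom and to -0.38 with 5 groups in the fit. Low counts limit Lrrk2 and Sncg, with 3 counts or fewer in some libraries.

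In dopamine against serotonin the count of all genes called went from 0 to 133 (DESeq2), 14 (limma-voom), 3 (at least 5 CPM), 2 (5 groups in the fit) and 2 (datL and datM only), and with 1 library left out lay between 0 and 1, the 1 without datL replicate 1. None of the 9 genes was called in any of these. Lrrk2 was at -2.61 with limma-voom, at -2.57 with 5 groups and between -0.98 and 1.56 with 1 library left out, negative without datM replicate 1. Pink1 was at 0.27 with the GC offset and between -0.31 and 0.15 with 1 library left out, positive without replicate 2 of datL or datM. Atp13a1 was at -2.50 with limma-voom, -0.60 with 5 groups, -0.74 with datL and datM only, and between -0.56 and 0.44 with 1 library left out. Atp13a4 was at -1.19 with limma-voom, -0.00403 without a filter, -3.87 with 5 groups, -0.0193 with the GC offset, and between -0.99 and 5.98 with 1 library left out.

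In Lateral and Medial against serotonin the count of all genes went from 3 to 787 (DESeq2), 1 (limma-voom), 7 (no filter) and 5 (at least 5 CPM), and lay between 13 and 2453 with 1 library left out, the highest without Lateral. DESeq2 called 1 of the 9 genes, and 0 to 2 were called with 1 library left out. Sncb lay between -1.76 and 0.13. Atp13a2 was at 0.0293 with RLE factors, 0.0292 with DESeq2 and 0.0290 with at least 5 CPM, and between -0.19 and 0.20 with 1 library left out. In datL against datM the count of all genes went from 0 to 1609 (DESeq2) and 243 (limma-voom), and 0 to 6 with 1 library left out. DESeq2 called 1 of the 9 genes, Sncg. With 1 library left out, Sncb lay between -1.02 and 1.14, Lrrk2 between -8.49 and 4.95, Park7 between -0.55 and 0.45, Pink1 between -1.14 and 0.24, Uchl1 between -0.47 and 1.45, Vps35 between -0.20 and 0.94, and Atp13a2 between -0.73 and 0.85. Park7 was at -0.0427 with limma-voom and -0.0236 with the GC offset, and Atp13a2 at -0.23 with the GC offset. The cause of these changes was not tested.

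The labels give same-numbered libraries no shared source, so they were not treated as pairs. Their deviations correlated at 0.129 (datL and datM), 0.0474 (datL and serotonin) and 0.00724 (datM and serotonin), and replicate 2 of datL and of datM shared the GC shift and the lower red blood cell sum (218 and 256 against 718 and 740 CPM). With the replicate block, 0 of the 9 genes and 0 of all genes were called in dopamine against serotonin and in datL against datM, with Fbxo7 and Sncg on the same side of 0, and Atp13a1 at -2.73 and Atp13a4 at -3.96. Lateral and Medial share only 1 number with serotonin, so no block was fitted there.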
